A study of Rattus norvegicus with 9 samples.

Results

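The 5 miRNAs described here are rno-miR-486, rno-miR-451-5p, rno-miR-16-5p, rno-miR-15b-5p and rno-miR-185-5p, written below without the prefix for rat. They are abundant in red blood cells and were taken by name, as a group, from a table of 276 mature miRNAs measured in rat serum. The serum came from wild-type male Sprague-Dawley (SD) rats 4 weeks after surgery, 6 with pulmonary artery banding (PAB), in which a plastic ring narrows the pulmonary artery and loads the right ventricle (RV), and 3 with a sham operation. The rats were 4 weeks old at surgery, and each gave 1 small RNA library, called PAB libraries 1 to 6 and sham libraries 1 to 3. The p-values measure the spread between these rats. The comparison of PAB with sham serum asked which circulating miRNAs differ once the RV has remodelled.

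A miRNA is a short RNA that pairs with messenger RNAs, mainly through its seed, bases 2 to 8, and lowers their output. Red blood cells lose their nucleus but keep miRNAs, and serum takes these up whenever red cells break, in the body or in the tube, so that the level of miR-451 against miR-23a is in common use as a measure of haemolysis. miR-451 is made from its precursor by Argonaute 2 without Dicer and is switched on in late red cell formation together with miR-144. miR-486 comes from an intron of the ankyrin 1 gene and is plentiful both in red cells and in heart and skeletal muscle. miR-16 and miR-15b form a family that holds back the cell cycle, and miR-185 is plentiful in erythroid cells. In serum, RNA from more cells and more RNA from each cell cannot be told apart.

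Of the 5 miRNAs, 4 were matched by name to the mature sequences of RefSeq for the rat build GRCr8. They are shown 5′ to 3′ with the seed in capitals, because the seed tells which of them belong to 1 family, and miR-497-5p is added as the only other matched miRNA of the deposited table with one of these seeds.
miR-451-5p: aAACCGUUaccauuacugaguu
miR-16-5p: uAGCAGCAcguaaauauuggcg
miR-15b-5p: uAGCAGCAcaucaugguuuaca
miR-497-5p: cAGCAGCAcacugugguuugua
miR-185-5p: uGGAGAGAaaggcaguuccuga

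miR-16-5p and miR-15b-5p had the same seed, the same first 9 bases and 14 identical positions of 22. They also lie next to each other on the plus strand of chromosome 2, miR-15b-5p at chr2:155555197-155555218 and miR-16-5p at chr2:155555343-155555364, so that their starts are 146 bases apart. miR-451-5p is at chr10:63459585-63459606 and miR-185-5p at chr11:96169041-96169062, both on the plus strand. miR-497-5p shared 16 of 22 positions with miR-15b-5p and 11 with miR-16-5p, and it is at chr10:55450172-55450193. miR-451-5p and miR-185-5p shared their seeds with no other matched miRNA of the deposited table. Reads of similar miRNAs can be given to one another in counting, and the counting rule is not given in the sources used here.

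Libraries held 19477 to 64455 miRNA reads in the PAB group and 56231 to 65313 in the sham group. The deposited RPM (reads of a miRNA scaled to a fixed total of all reads of a library) implies that miRNAs made up 0.101% to 0.412% of all reads in the PAB group and 0.332% to 0.517% in the sham group. The number of miRNAs with at least 1 read was 81 to 131 in PAB libraries and 129 to 217 in sham libraries. Their part in the results below was not tested.

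The 5 red cell miRNAs were not high in the same serum samples of rats with PAB. miR-486 and miR-451-5p were high in most PAB libraries, miR-16-5p was very high in 2 of them and near 0 in the other 4, and miR-15b-5p and miR-185-5p were at 0 to 2 reads in all 6 PAB libraries. None of the 5 passed the quasi-likelihood test of edgeR with an adjusted p ≤ 0.05 and |log2FC| ≥ 1, which called 0% of the 162 tested miRNAs higher and 1.23% lower. log2FC, here and throughout, is the fitted log2 fold change of PAB against sham. The 2 called lower were miR-31a-5p and miR-181a-1-3p, named after their values were seen. At an unadjusted p under 0.05, miR-486 was among the 7 miRNAs higher (4.32% of those tested), and miR-15b-5p and miR-185-5p were among the 17 lower (10.5%). Of the 5 red cell miRNAs 3 had a log2FC above 0, against 46.9% of all tested miRNAs, and their median log2FC was 1.54, against −0.15 for all tested miRNAs.

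**Figure D1:**
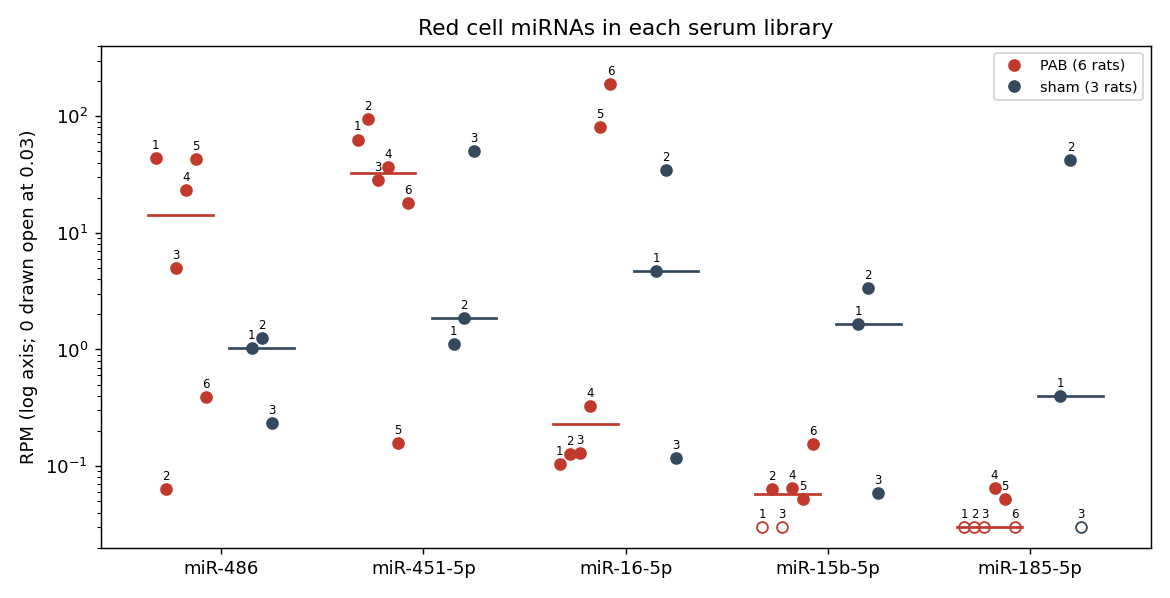
Level of each red cell miRNA in each library, in RPM on a log axis, with PAB libraries (red) left of sham libraries (dark). Numbers are library numbers, bars are group medians, and open circles are libraries with 0 reads. Within the PAB group miR-486 spans 0.064 to 43.7 RPM and miR-16-5p 0.104 to 190.2 RPM, and miR-15b-5p and miR-185-5p stay at 0.156 RPM or below there.

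miR-486 was at 43.7, 0.064, 5.04, 23.2, 43.0 and 0.390 RPM in PAB libraries 1 to 6 and at 1.03, 1.25 and 0.236 RPM in sham libraries 1 to 3. PAB libraries 1, 3, 4 and 5 lay above all sham libraries, while PAB library 2 lay below them and PAB library 6 among them, so the groups overlapped. PAB libraries averaged 19.2 ± 20.5 RPM (SD, n = 6) and sham libraries 0.840 ± 0.535 RPM (SD, n = 3). The fitted log2FC was 6.77 (standard error 2.87, adjusted p = 0.211 from edgeR). On the scale of log2(RPM + 0.1), the PAB group was higher by 2.68 (p = 0.262, or 0.437 adjusted over the 5 miRNAs, by an exact permutation of the libraries, two-sided). DESeq2 on the same miRNAs called miR-486 higher at 7.37 (standard error 1.68, adjusted p = 0.000891 from DESeq2), in a run that called 5.56% of the tested miRNAs higher and 3.09% lower. limma-voom gave 3.98 (adjusted p = 0.83) and called 0 miRNAs. In PAB library 1, which had the fewest miRNA reads, miR-486 made up 4.32% of them (95% Wilson interval 4.04% to 4.61%, counting error only).

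miR-451-5p had a median of 32.5 RPM over the PAB libraries, with a low of 0.157 in PAB library 5 and a high of 94.2 in PAB library 2. In sham libraries 1 to 3 it was at 1.11, 1.85 and 50.2 RPM. The groups overlapped at both ends, since 5 PAB libraries were above sham libraries 1 and 2, but sham library 3 was above 4 of the 6 PAB libraries. PAB libraries averaged 40.1 ± 33.7 RPM (SD, n = 6) and sham libraries 17.7 ± 28.2 RPM (SD, n = 3). The log2FC was 1.54 (standard error 1.88, adjusted p = 0.749 from edgeR), below its standard error. Without sham library 3 it was 7.16 (adjusted p = 0.275), and without PAB library 1 it was 0.71 (adjusted p = 0.932).

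miR-16-5p had separate low and high libraries. It was at 80.4 and 190 RPM in PAB libraries 5 and 6, with 1541 and 2440 reads, and at 0.104 to 0.326 RPM in PAB libraries 1 to 4, with 2 to 5 reads. In sham libraries 1 to 3 it was at 4.67, 34.8 and 0.118 RPM, from 59, 582 and 2 reads. Both groups thus held low and high libraries, and no library was between 5 and 59 reads. In PAB library 6 miR-16-5p made up 8.18% of the miRNA reads (95% Wilson interval 7.87% to 8.50%), the highest share of any of the 5 miRNAs in a library. PAB libraries averaged 45.2 ± 77.9 RPM (SD, n = 6) and sham libraries 13.2 ± 18.8 RPM (SD, n = 3), while the medians ran the other way, 0.228 RPM in the PAB group and 4.67 RPM in the sham group. The log2FC was 3.49 (standard error 2.55, adjusted p = 0.497 from edgeR). On the scale of log2(RPM + 0.1) the difference, PAB minus sham, was −0.71 (exact permutation test, p = 0.821), so that the direction depended on the scale. Without sham library 2 that difference was 0.99 and the log2FC from edgeR was 5.98 (adjusted p = 0.666).

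miR-15b-5p, of the same family and the same cluster as miR-16-5p, was low in all 6 PAB libraries, those with high miR-16-5p included, while in the sham group both miRNAs were highest in library 2 and lowest in library 3. miR-15b-5p had 0, 1, 0, 1, 1 and 2 reads in PAB libraries 1 to 6, at most 0.156 RPM, and 21, 56 and 1 reads in sham libraries 1 to 3, or 1.66, 3.35 and 0.059 RPM. Sham libraries 1 and 2 lay above all PAB libraries and sham library 3 lay among them. A count of 0 in PAB libraries 1 and 3 allows a level of up to 0.156 and 0.194 RPM (3 counts). Over the pooled reads, 5 in the PAB group and 78 in the sham group, the PAB level was 0.0304 of the sham level (95% exact interval 0.0096 to 0.074, counting error only). The log2FC was −3.07 (standard error 1.10, adjusted p = 0.147 from edgeR), the smallest standard error of the 5. On the scale of log2(RPM + 0.1) the difference was −2.74 (exact permutation test, p = 0.0476, or 0.208 adjusted over the 5 miRNAs), with both sham libraries 1 and 2 above 6 of 6 PAB libraries. Without sham library 2 it was −1.84 (exact p = 0.143) and the log2FC was −2.11 (adjusted p = 0.746). With library totals taken from the RPM values instead of TMM factors (trimmed mean of M values, the scaling used elsewhere), edgeR called miR-15b-5p lower, with a log2FC of −4.76 (adjusted p = 0.0418).

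miR-185-5p was read almost only in 1 rat. Sham library 2 held 707 of its 714 reads, 42.2 RPM, and the rest were 5 reads in sham library 1 and 1 read in each of PAB libraries 4 and 5. The other 5 libraries had 0 reads, where 3 counts would be 0.156 to 0.234 RPM. Reads were present in 2 of 6 PAB libraries and in 2 of 3 sham libraries (Fisher's exact two-sided test, p = 0.524). The log2FC was −7.34 (standard error 2.31, adjusted p = 0.082 from edgeR), and −1.23 (adjusted p = 0.884) without sham library 2. Over the pooled reads of the libraries left, 2 in the PAB group and 5 in the sham group, the PAB level was 0.121 of the sham level (95% exact interval 0.0115 to 0.74, which covers counting error only and not the spread between rats). DESeq2 called miR-185-5p lower (−6.91, adjusted p = 0.0341), as did edgeR with the totals implied by RPM (−9.00, adjusted p = 0.0418), both with sham library 2 in the fit.

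**Figure D2:**
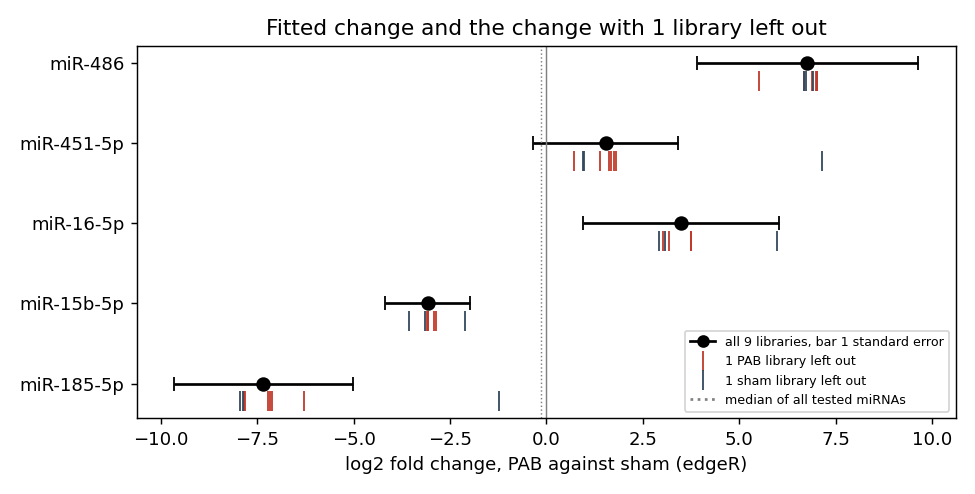
Fitted log2FC of PAB against sham for the 5 miRNAs (black points, bars of 1 standard error, edgeR on 9 libraries) and, as ticks below each point, the value with 1 PAB library (red) or 1 sham library (dark) left out. The dotted line is the median of all tested miRNAs. miR-486 stays between 5.52 and 7.02, while miR-451-5p spans 0.71 to 7.16 and miR-185-5p −7.94 to −1.23.

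The scaling of the libraries moved all these values. The median log2FC of the 162 tested miRNAs was −0.15 with TMM factors and −1.54 with the totals implied by RPM. Relative to that median, miR-486 was at 6.92 with TMM and 6.04 with the totals implied by RPM. miR-451-5p was at 1.69 and 2.71 and miR-16-5p at 3.64 and 3.31 on the same 2 scales. miR-15b-5p was at −2.93 and −3.23 and miR-185-5p at −7.19 and −7.47. The order of the 5 thus stayed the same, and none changed direction between these 2 scalings. DESeq2 called 1 of the 5 higher and 1 lower, and edgeR with the totals implied by RPM, which called 0% of the tested miRNAs higher and 14.2% lower, called 2 of the 5 lower.

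Ratios within a library do not depend on its total where both miRNAs have many reads. Where either has few or no reads, the 0.5 reads added make the ratio follow depth as well. The log2 ratio of miR-486 to miR-451-5p, with 0.5 reads added to each, was −0.53, −9.94, −2.47, −0.67, 7.88 and −5.41 in PAB libraries 1 to 6 and −0.10, −0.55 and −7.57 in sham libraries 1 to 3. The 2 miRNAs were close to equal in PAB libraries 1 and 4 and in sham libraries 1 and 2. In PAB library 5, with 823 and 3 reads, miR-486 was far above miR-451-5p, and in PAB library 2, with 1 and 1474 reads, far below it. PAB libraries averaged −1.86 ± 5.94 (SD, n = 6) and sham libraries −2.74 ± 4.19 (SD, n = 3), and these means differed by 0.88 (exact permutation test, p = 0.881). Across the 9 libraries the levels of both, as log2(RPM + 0.1), had a Pearson r of −0.26 (exact permutation test, p = 0.492) and a Spearman rho of −0.25 (exact permutation test, p = 0.521), and r was −0.11 without the 2 libraries farthest from the median of miR-486.

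The log2 ratio of miR-15b-5p to miR-16-5p was −2.32, −0.74, −2.32, −1.87, −10.0 and −9.93 in PAB libraries 1 to 6 and −1.47, −3.37 and −0.74 in sham libraries 1 to 3. The 2 PAB libraries with high miR-16-5p thus had 1 and 2 reads of miR-15b-5p beside 1541 and 2440 of its neighbour, while sham library 2 had 56 beside 582. In the 5 libraries with 2 to 5 reads of miR-16-5p the ratio rests on few reads. The difference between the PAB and sham means was −2.67 (exact permutation test, p = 0.31). miR-15a was also listed as a cluster relative of miR-16, so the miR-16-5p reads need not all come from the locus beside miR-15b. Their origin was not tested.

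**Figure D3:**
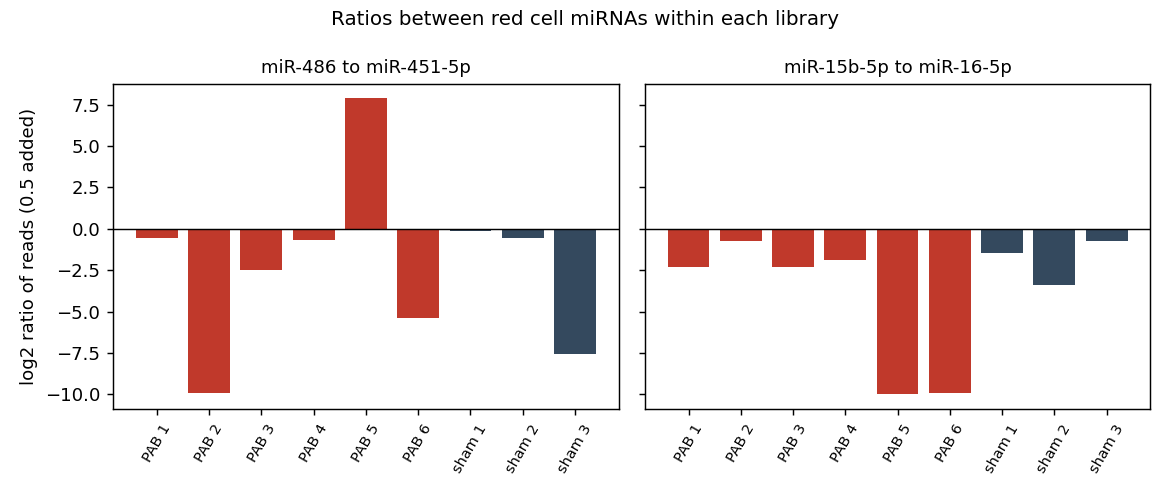
log2 ratio of the reads of miR-486 to miR-451-5p (left) and of miR-15b-5p to miR-16-5p (right) in each library, PAB libraries in red and sham libraries dark, with 0.5 reads added to each count. The left bars run from −9.94 to 7.88 within the PAB group, and the right bars are lowest in PAB libraries 5 and 6.

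Each miRNA was also set against miR-23a-3p, which had 577 to 3384 reads in PAB libraries and 2442 to 4089 in sham libraries. In RPM, miR-23a-3p averaged 106 ± 63.9 (SD, n = 6) in PAB libraries and 207 ± 101 (SD, n = 3) in sham libraries. On that scale 5 PAB libraries were below all sham libraries. Its log2FC was 0.40 (adjusted p = 0.931 from edgeR). The ratios below thus also move with the level of miR-23a-3p. The log2 ratio to miR-23a-3p was higher in the PAB group by 3.76 for miR-486, with −4.32 ± 4.13 (SD, n = 6) for PAB libraries and −8.08 ± 1.18 (SD, n = 3) for sham libraries (exact permutation test, p = 0.179). For miR-451-5p, the ratio used for haemolysis, the log2 ratio was −0.49, −1.20, −2.11, −1.72, −7.94 and −1.31 in PAB libraries 1 to 6 and −8.14, −6.28 and −1.60 in sham libraries 1 to 3. Relative to one another, it was thus higher in 5 of 6 PAB libraries and in sham library 3, and lower in PAB library 5 and in sham libraries 1 and 2. In every library miR-451-5p had fewer reads than miR-23a-3p, and no cut-off for haemolysis was applied. The PAB mean was higher by 2.88 (exact permutation test, p = 0.274), by 4.75 without sham library 3 (exact p = 0.0714) and by 1.48 without sham library 1 (exact p = 0.821). The part of haemolysis in the levels of the 5 miRNAs was not tested. The difference was 0.25 for miR-16-5p, −2.42 for miR-15b-5p and −3.11 for miR-185-5p (exact permutation tests, p = 0.893, 0.131 and 0.179). With at most 2 reads of miR-15b-5p or miR-185-5p in any PAB library, their ratios there largely follow the reads of miR-23a-3p. At 0 reads of miR-185-5p, the log2 ratio was −12.7 in PAB library 2 and −10.2 in PAB library 6. Of the 7 ratios tested, the lowest adjusted p was 0.417. The difference of miR-486 was 5.12 without PAB library 2 (exact p = 0.0357), and 2.91 to 4.38 without any other single library (exact p from 0.179 to 0.321). The difference of miR-185-5p was −0.057 without sham library 2 (exact p = 0.893).

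Of the 6 pairs of red cell miRNAs without miR-16-5p, none had a correlation over the 9 libraries that passed adjustment over all 10 pairs. The lowest adjusted p was for miR-15b-5p and miR-185-5p (Pearson r = 0.87, exact permutation p = 0.00562, adjusted p = 0.0562 over 10 pairs, and Spearman rho = 0.68, exact permutation p = 0.0526). That relation rests on sham libraries 1 and 2, since r was 0.13 without the 2 libraries farthest from the median of miR-15b-5p. For the 4 pairs with miR-16-5p no correlation is given, because its libraries formed separate clusters of 5 and 4, too few to test within.

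By Spearman's rho of log2 CPM after TMM scaling over the 9 libraries, the tested miRNAs most like miR-486 were 2 sequences predicted by the authors (0.95 and 0.91), followed by let-7f-5p (0.88). Those most like miR-451-5p were miR-23a-3p (0.85), miR-92a-3p (0.83) and miR-204-5p (0.67). miR-16-5p was most like miR-30a-5p (0.91, 12 reads in all), and miR-15b-5p most like miR-19b-3p (0.90, 35 reads in all). miR-30a-5p had 0 reads in PAB libraries 1 to 4 and sham library 3, where miR-16-5p was low, and 1 to 7 reads elsewhere. The 0.91 thus restates the split of miR-16-5p into low and high libraries. miR-378a-3p, with 152 reads in all, had the same rank order as miR-185-5p over the 9 libraries (rho 1). PAB libraries 1, 2, 3 and 6 and sham library 3 were tied at 0 reads for both. PAB libraries 4 and 5 had 1 read each of miR-185-5p, so their order rests on scaling. In RPM it was 0.065 and 0.052, while miR-378a-3p had 1 and 11 reads there. The values for miR-16-5p, miR-15b-5p and miR-185-5p rest on few reads. All of them are descriptions over libraries that share their depth and scaling.

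Swings as wide as those of 4 of the red cell miRNAs were common among serum miRNAs with many reads. Of the 71 tested miRNAs with at least 500 reads in all, 59 (83.1%) differed by at least 6 log2 units between their highest and lowest library in RPM + 0.1, and the median was 8.49. Of the 71, 54 (76.1%) had at most 5 reads in at least 1 library, which by itself widens this range. The log2 range was 9.87 for miR-16-5p (place 12 of 71), 8.73 for miR-185-5p (place 29), 8.52 for miR-451-5p (place 35) and 8.06 for miR-486 (place 45). miR-185-5p was in this set only through sham library 2. miR-15b-5p, with 83 reads in all and a log2 range of 5.11, was not in it. miR-23a-3p had a log2 range of 2.85. miR-185-5p stood out by having 99.0% of its reads in 1 library, as only 10 of the 162 tested miRNAs (6.17%) had at least 90%. For the other 4 this share was 30.6% to 67.5%, against a median of 50.1% over all tested miRNAs. Sham library 2, the highest library of miR-15b-5p and miR-185-5p, was the highest library of 45.7% of all tested miRNAs.

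**Figure D4:**
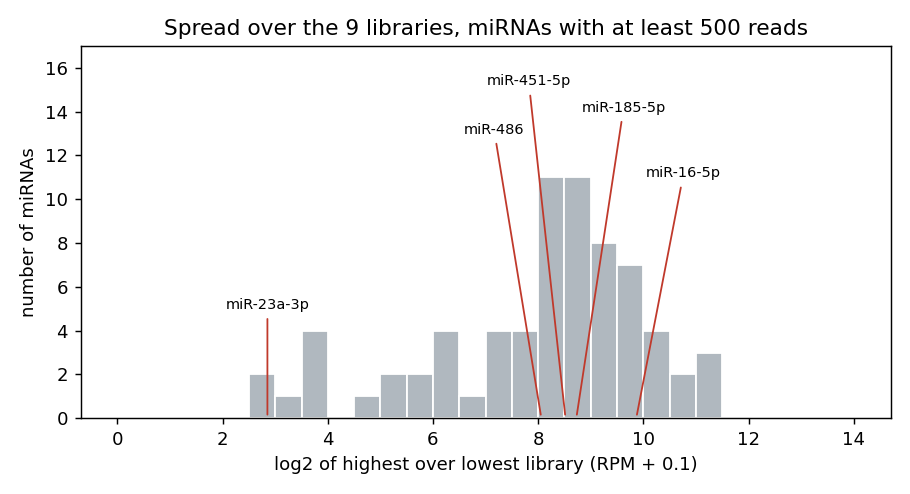
Number of miRNAs (of the 71 with at least 500 reads in all) by the log2 of the highest over the lowest library in RPM + 0.1, with lines to 4 of the red cell miRNAs and to miR-23a-3p. The 4 lie between 8.06 and 9.87, within the bulk of the histogram, and miR-23a-3p lies at 2.85.

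Summed over the 5, red cell miRNAs took 1.86% to 10.6% (median 3.10%) of the miRNA reads of a PAB library and 0.171%, 2.14% and 1.53% in sham libraries 1, 2 and 3. PAB libraries 3 and 4 were below sham library 2. The sum was largest in PAB libraries 1 and 6, and different miRNAs made it, miR-451-5p and miR-486 in PAB library 1 and miR-16-5p in PAB library 6.

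Among their relatives, miR-15b-3p, the other arm of the miR-15b precursor, had 0 reads in all 6 PAB libraries and 1, 2 and 0 in sham libraries 1 to 3, too few to be tested. miR-497-5p had at most 2 reads in a PAB library and at most 3 in a sham library, with a log2FC of 0.38 (adjusted p = 0.981 from edgeR). The other arms of miR-486, miR-451, miR-16 and miR-185, and both arms of miR-144 and miR-15a, were not found by name in the deposited table. Of 14 further miRNAs known from red cells and listed with earlier results of these data known, 9 were in the table, 6 were tested and 0 were called higher or lower. Of these 6, 5 had a log2FC below 0, against 53.1% of all tested miRNAs, and the median was −1.50, against −0.15 for all tested miRNAs. miR-25-3p was the lowest of them at −3.86 (standard error 1.53, adjusted p = 0.188 from edgeR), with 188 of its 208 reads in sham library 2. miR-92a-3p, from the miR-17-92 cluster, was at 0.13 (adjusted p = 0.982), with 34.8 ± 25.5 RPM (SD, n = 6) in PAB libraries and 70.8 ± 14.1 RPM (SD, n = 3) in sham libraries. miR-22-3p was at −0.73 (adjusted p = 0.913). miR-93-5p, miR-17-5p and miR-96-5p were at −1.53, −1.47 and −1.88 (adjusted p = 0.641, 0.560 and 0.409 from edgeR). They had 182, 7 and 24 reads in all, and sham library 2 held 61.0%, 57.1% and 58.3% of these. The summed level of the 9 was 31.2 to 138 RPM in PAB libraries and 147 to 164 RPM in sham libraries. Most of that sum was miR-92a-3p and miR-22-3p in every library. RPM tended to place PAB serum lower: half-way values of log2FC (medians over the tested miRNAs) were −1.54 with RPM totals and −0.15 with TMM. The 0.13 of miR-92a-3p was fitted with TMM factors and is not on the scale of its RPM. The part of scaling in the lower PAB sums was not tested.

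Listed miRNAs of other cells also varied widely between libraries. The summed level of 5 striated muscle miRNAs found of 8 listed, where miR-486 is also plentiful, was 2.86 to 63.7 RPM in the PAB group and 5.96 to 95.9 RPM in the sham group. miR-206-3p made up most of it in PAB libraries 2, 3 and 4. Without miR-206-3p, a sum chosen after the data were seen, the level in PAB libraries 1 to 6 was 2.81, 4.67, 0.775, 1.57, 4.02 and 10.6 RPM and in sham libraries 1 to 3 it was 29.7, 61.6 and 5.78 RPM. PAB libraries 1 and 5 were the 2 with the most miR-486. On the full listed sum they were the lowest of the PAB group, at 2.86 and 4.12 RPM. On the sum without miR-206-3p they were in the middle of that group. For 4 platelet miRNAs of 5 listed the sum was 114 to 1320 RPM in the PAB group and 994 to 2044 RPM in the sham group. Most of that sum was miR-191a-5p and miR-24-3p in every library. These rank 1 and 2 by mean RPM, so the sum is not read as a level of platelets. miR-223-3p had 683 reads in PAB library 5 and at most 1 in any other library. For 3 white blood cell miRNAs of 6 listed it was 15.1 to 251 RPM in the PAB group and 29.2 to 247 RPM in the sham group. miR-122-5p, which is made almost only in liver, was at 0 to 106 RPM in the PAB group, with 0 in PAB libraries 4 and 5, and at 30.0 to 162 RPM in the sham group. edgeR called 0 members of any of these lists, and their part in the results was not tested.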

How the data were processed

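Total RNA of rat serum was made into libraries with a small RNA kit and read as single ends of 50 bases. According to the methods of the study, clean reads were aligned to the rat build Rnor_6.0 and compared with miRBase and Rfam, whereas Bowtie2 2.2.9, DESeq2 and the human build GRCh38.p13 stand in the submitters' processing notes. The deposited table gives counts, whole reads per miRNA and not normalized, and RPM, which the authors scaled to 1 total per library that is far above the sum of the table.

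The counts of 162 miRNAs above 0 in at least 3 of 9 libraries were tested with edgeR 4.0.16 (R 4.3.3; TMM, quasi-likelihood, Benjamini-Hochberg adjustment over all 162). A call needed an adjusted p ≤ 0.05 and |log2FC| ≥ 1. Standard errors are |log2FC| divided by the square root of F. Levels and ratios were tested by exact permutation, two-sided, over all 84 ways to label the libraries, where no p is below 0.0119. Alternatives were DESeq2 1.42.0 without its filters, limma-voom (limma 3.58.1), other scalings and filters, other pseudocounts, a replicate block and leaving out each library. Python 3.11.15 with scipy 1.17.1 was used for the rest. The named miRNAs are the 5, their other arms, cluster and seed relatives, further red cell miRNAs, and the 3 most like each. Members and lists were chosen with earlier results of these data known. Of 218 miRBase names, 196 matched the RefSeq table.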

Additional observations from a re-analysis of the deposited data

Results flagged for a closer look

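Of 19 sets of 6 PAB values tested for a single library far from the others, 2 were marked, where chance marks about 1 in 20, and both are PAB library 5 with its 3 reads of miR-451-5p. Its level was 6.72 as log2 CPM after TMM scaling, and the gap to the next PAB library was 0.632 of the range of the group. Set against miR-23a-3p, its log2 ratio was −7.94, with a gap of 0.783 of the range. The same library had 823 reads of miR-486 and 1541 of miR-16-5p. Groups of 3, such as the sham group, were not tested.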

How the results depend on the processing

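The counts of calls over all tested miRNAs depended on the processing. edgeR called 0 higher and 2 lower, against 9 and 5 with DESeq2. Lower calls were 0 with limma-voom, with DESeq2 size factors in edgeR and with 10 or more reads required in 3 libraries, 6 with library totals, 23 with the totals implied by RPM, 10 without a filter (1 higher) and 5 with miRBase miRNAs alone. They were 0 to 2 with 1 library left out. The cause was not tested.

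For miR-486, the log2FC was 7.37 with DESeq2 (called higher), 4.50 with the totals implied by RPM, 3.98 with limma-voom and 5.52 to 7.02 with 1 library left out. For miR-185-5p it was −6.91 with DESeq2 and −9.00 with the totals implied by RPM, and for miR-15b-5p −4.76 with these totals, each called lower. With 1 library left out, the log2FC was −7.94 to −1.23 for miR-185-5p, −3.57 to −2.11 for miR-15b-5p, 2.92 to 5.98 for miR-16-5p and 0.71 to 7.16 for miR-451-5p.

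The PAB and sham libraries 1 to 3 share only a number: the deviations of same-numbered libraries had correlations of −0.15, −0.35 and 0.03, and 0 of 3 correlated best with their own number. With the number as a replicate block in these 6 libraries, lower calls were 0, and the log2FC was −3.24 for miR-16-5p and 4.08 for miR-486. Without the block, in a fit chosen after the data were seen, the same 6 libraries gave 0 and −4.41, so that miR-16-5p was below 0 once PAB libraries 4 to 6 were left out. miR-185-5p could not be tested there, nor were miR-15b-5p and miR-185-5p above the filter of 10 reads.

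The difference of log2(RPM + 0.1) of miR-16-5p was 0.60 as log2 CPM after TMM scaling and −2.67 to 0.99 with 1 library left out. That of miR-15b-5p was −4.06 to −1.84 and that of miR-185-5p −5.30 to −0.93. The ratio to miR-23a-3p differed by 2.91 to 5.12 for miR-486, 1.48 to 4.75 for miR-451-5p, −5.33 to −0.057 for miR-185-5p, −1.72 to 2.25 for miR-16-5p and −3.84 to −1.18 for miR-15b-5p, and the ratio of miR-486 to miR-451-5p by −1.53 to 2.50. The correlation of miR-486 with miR-451-5p was 0.11 in log2 CPM after TMM scaling. That of miR-486 with miR-185-5p was 0.58 in PAB libraries alone and 0.077 without the 2 libraries farthest from the median. Of 294 alternative values, 12 turned the direction, most of them for miR-16-5p. The 294 include the counts of calls, which have no direction to turn. With 3 sham libraries, a value that stays short of the threshold says nothing of its stability.

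Depth limits miR-15b-5p and miR-185-5p most, since 1 read is the whole signal in several libraries.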
